A study of Mus musculus with 4 samples.

Results

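The 35 genes described here encode the cytoskeleton, synapse and identity proteins of neurons, read out in RNA from mouse brain endothelial cells. They were taken by gene symbol, with no threshold on their values, from a list that was drawn up with earlier results of these data known, out of 17905 genes that the count tables hold. Of the 35, 28 had a row in both tables and all 28 passed the filter on low counts. Another 3 (Nefm, Gad1 and Tbr1) were listed for STING ECKO 2 and WT 5 only, and 4 (Nefl, Nrxn2, Slc32a1 and Syt1) were in neither table. A gene without a row had at most 4 reads in either library of that table.

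The libraries came from C57BL/6 embryos at embryonic day 18 (E18), and the labels give the tissue as brain and the cell type as endothelial cell. One group, STING ECKO (labelled STINGECKO), is by its name an endothelial cell knockout of STING, the adaptor of cytosolic DNA sensing. The other group is wild type (WT). There were 2 libraries of each, numbered 1 and 2 for STING ECKO and 3 and 5 for WT, and paired values below follow that order. The labels leave out the Cre driver, the deleted exons, the sorting and any treatment. The series text speaks of triplicates, and 4 libraries are described. The labels do not name the animals, so each p-value reflects only how far these libraries lie apart, which for WT may be technical.

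A neuron builds its axon and dendrites on microtubules of neuronal tubulin, which tau and other microtubule-associated proteins stabilise and which stathmins take apart. At the presynaptic terminal, synapsins tether vesicles, and the SNARE proteins syntaxin, SNAP-25 and synaptobrevin drive their fusion with the membrane. In the embryonic cortex these genes come on as newborn neurons leave the ventricular zone, under proneural transcription factors, and outside the nervous system many of them are held off by the repressor REST. Endothelial cells are not known for most of them, but in the brain they lie against neurons and their processes.

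The promoters of 25 of the 35 genes were in the RefSeq promoter table of GRCm38.p6, as 35 windows that each run from 250 bases before a transcription start to 50 after it. Those of Syn1 and Apba2 are shown because these genes had no reads in either STING ECKO library and 570 and 755 in the WT libraries together. Capitals mark the motifs searched for that were found. In Syn1 they are the left part of the REST element (TTCAGCACC), 232 bases before the start, and the cyclic AMP response element (TGACGTCA), 159 bases before it. In Apba2 they are GC boxes (GGGCGG), 143 and 119 bases before the start.
Syn1 (chrX:20920869-20921168, minus strand): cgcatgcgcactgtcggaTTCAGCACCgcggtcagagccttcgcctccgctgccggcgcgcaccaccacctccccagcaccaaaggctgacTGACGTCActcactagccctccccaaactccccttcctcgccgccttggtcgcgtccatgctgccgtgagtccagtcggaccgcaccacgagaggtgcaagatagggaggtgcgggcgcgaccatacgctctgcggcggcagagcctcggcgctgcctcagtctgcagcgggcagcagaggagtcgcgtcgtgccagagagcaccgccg
Apba2 (chr7:64501888-64502187, plus strand): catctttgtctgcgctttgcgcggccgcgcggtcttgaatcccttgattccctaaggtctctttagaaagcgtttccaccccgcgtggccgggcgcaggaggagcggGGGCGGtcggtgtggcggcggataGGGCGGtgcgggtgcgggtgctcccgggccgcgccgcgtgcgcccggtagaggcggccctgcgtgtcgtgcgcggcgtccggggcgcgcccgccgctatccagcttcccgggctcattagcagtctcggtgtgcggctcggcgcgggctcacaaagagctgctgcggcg

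Each motif was searched on both strands, and those marked do not overlap one another. TTCAGCACC was in 121 of 32544 promoters of the genome (0.372%), and among the windows of the 25 genes it was in that of Syn1 alone. TGACGTCA was in 1.80% of all promoters and likewise in Syn1 alone among the 25 genes. Its core, TGACG, which lies within the full element and is not marked elsewhere, was in 20.9% of all promoters and 28.6% of the windows, the upstream one of Apba2 included. GGGCGG was in 35.9% of all promoters and in 48.6% of the 35 windows. The E-box of the NeuroD type (CAGATG) was in 28.6% of the 35 windows, including one of Neurod2, against 17.1% of all promoters. The right part of the REST element (GGACAGC) was in those of Crmp1, Gad2, Map2 and Tubb3, which is 11.4% against 6.59%. The sequence TATAAA was in 14.3% of the windows and 13.6% of all promoters. A second Apba2 start lies upstream (chr7:64501456-64501755) and its window held none of the motifs that are marked. A match describes the letters in the window and does not show that a factor binds there.

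The tables hold between 18610298 and 22169261 reads per library. All 12 endothelial markers had reads in every library, with summed levels of 27467 to 28746 CPM (reads scaled to a common total in each library). RNA of the labelled cell type was thus present in each. Pericyte and smooth muscle markers were read as well, with summed levels of 7606 to 10480 CPM. Tmem173, the gene of STING, was at 3.65 and 8.32 CPM under the label STING ECKO and at 4.48 and 6.27 CPM in WT, so it did not separate the labels, and every direction below is between libraries as labelled. STING ECKO 2 stood apart: 11.9% of all tested genes had 0 reads in it, against 1.83% to 4.39% in the other libraries. Xist had 0 reads in STING ECKO 1 and 876 to 3374 in the other libraries, and Ddx3y was listed with reads in STING ECKO 1 alone, so the libraries of that genotype differ in sex and are not repeats of 1 sample. The members Dcx, L1cam, Syn1 and Syp lie on the X chromosome.

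No neuronal gene passed the adjusted threshold of 0.05, and the group lay lower in some library pairs than in others. Its summed level was 338 and 191 CPM in STING ECKO 1 and 2 against 505 and 351 CPM in WT 3 and 5. The genotypes did not overlap in the sum, but STING ECKO 1 and WT 5 lay close. To the sum of WT 5, Apba2, Gap43 and Syn1 added 9.12, 19.2 and 14.0 CPM. In STING ECKO 1 only Gap43 of these had a read, at 0.0545 CPM. Those genes had reads enough to be tested only in WT, and the order of STING ECKO 1 and WT 5 rested on them. Nefm, Gad1 and Tbr1 had no row for STING ECKO 1 and WT 3 and were counted as 0 there. They added to the sum of WT 5, Nefm with 4.58 CPM, so the listing made part of that narrow gap. Of the 28 genes tested, 22 (78.6%) had a log2 fold change below 0, where 51.8% of all tested genes did. Their median log2 fold change was -0.72, against -0.03 over all 13365 genes tested, a value that counting bounds for Syn1 and Apba2 cannot move, since both stay below it. It was -1.63 without STING ECKO 1, -0.35 without STING ECKO 2 and -0.07 without WT 3, and without WT 3 the number below 0 was 14 of 28, so the lean of the group rested on STING ECKO 2 and WT 3 in particular. STING ECKO 1 was above WT 5 in 15 of the 28 genes, with a median difference of 0.16 in log2 CPM. In bulk RNA, fewer cells of a type and less RNA per cell cannot be told apart.

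The quasi-likelihood test of edgeR, with p-values adjusted by Benjamini-Hochberg, called 0 of 28, as it called 0 of 13365 genes (0%), with adjusted p from 0.977 to 1.00 over the 28. At an unadjusted p under 0.05 the same test had 3 of the 28 (10.7%) and 642 of all genes (4.80%). DESeq2 called Apba2, Gap43 and Syn1, 3 of the 27 members it gave an adjusted p (11.1%), beside 87 of 12587 genes (0.691%). The edgeR likelihood ratio test called the same 3 members and 33 genes in all, and limma-voom called 0 of both. Those 3 members had reads enough to be tested only in WT, so a difference in them was built into the filter.

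The genotypes did not overlap in CPM for 10 of the 28 genes. In 9 of them both STING ECKO libraries were below both WT libraries (32.1%, against 19.0% of all tested genes), a count that holds the 3 genes whose order the filter fixed. Among genes at the filter level in at least 1 library of each genotype it was 6 of 25 (24.0%), against 16.7% of all such genes. In 1, Syn2, both were above (3.57%, against 15.4% of all tested genes). The 9 were Apba2, Crmp1, Dcx, Gap43, Mapt, Neurod2, Neurod6, Syn1 and Tubb3. The count lower was 21 of 28 without STING ECKO 1 (43.4% of all genes) and 18 of 28 without WT 5 (33.0%). It was 11 of 28 without STING ECKO 2 (32.2% of all genes) and 10 of 28 without WT 3 (33.9%). In each of these a lone library stands for its genotype.

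**Figure D1:**
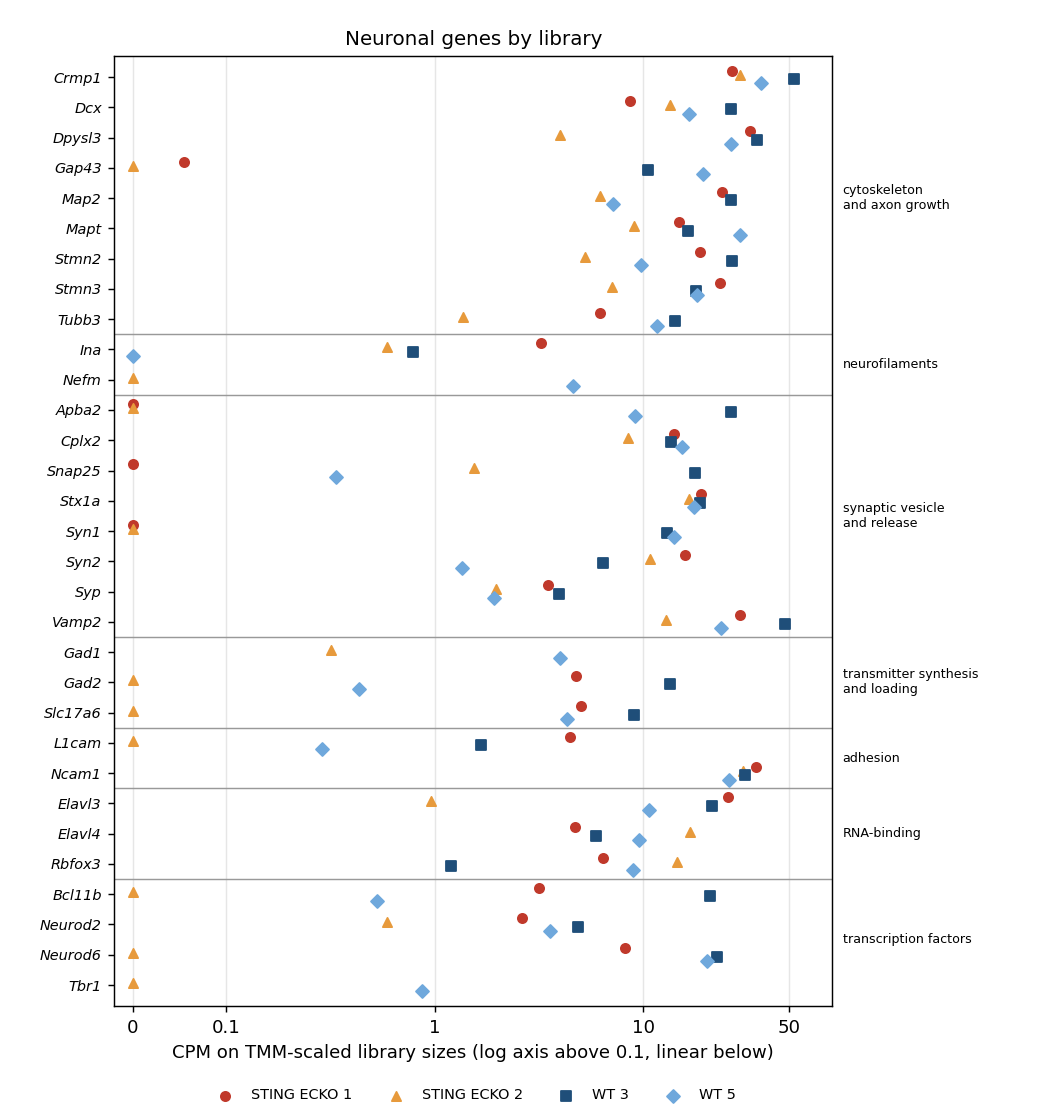
Level of the 31 neuronal genes with a row, on the horizontal axis as CPM on TMM-scaled library sizes (log axis above 0.1), with one row per gene, grouped by role, and one symbol per library. The symbols of Apba2 and Syn1 for both STING ECKO libraries lie at 0, and STING ECKO 2 is the lowest library for 17 of the 28 tested genes.

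The genes of the cytoskeleton and of axon growth all had log2 fold changes below 0, with a median of -0.76 over the 9. Without STING ECKO 2, 4 of them were above 0, namely Map2 at 0.52, Stmn3 at 0.38, Dpysl3 at 0.08 and Stmn2 at 0.05, and without WT 3 Map2 and Stmn2 were above 0, at 1.07 and 0.29. Lower without overlap were 5 of the 9, Gap43 among them, where 19.0% of all tested genes were. None passed the adjusted threshold. Their summed level was 154 and 75.4 CPM in the STING ECKO libraries against 226 and 174 CPM in the WT libraries. Gap43 made 19.2 CPM of the sum of WT 5 and 0.0545 CPM of that of STING ECKO 1.

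Gap43, a phosphoprotein of the growing axon tip (ENSMUSG00000047261, chromosome 16, 42248442 to 42340651, minus strand, GRCm38), had 1 and 0 reads in the STING ECKO libraries against 228 and 399 reads in the WT libraries. Its level was 0.0273 ± 0.0385 CPM in STING ECKO and 14.9 ± 6.15 CPM in WT (SD, n = 2 each). The WT libraries were high and the STING ECKO libraries at or next to nothing. From its 1 read against 627, the ratio of WT over STING ECKO was 595, with a 95% exact binomial interval of 106 to 23547 that covers counting error only. The adjusted p was 0.977 with the edgeR quasi-likelihood test (Benjamini-Hochberg adjustment) and ranged from 0.00205 with DESeq2 to 1.00 over the alternatives.

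Tubb3, the neuronal beta-tubulin read by the TUJ1 antibody, was at 6.21 and 1.37 CPM in the STING ECKO libraries against 14.2 and 11.6 CPM in the WT libraries. Both STING ECKO libraries lay below both WT libraries, and STING ECKO 2 was far below the rest. The log2 fold change was -1.77 (SE 1.26, edgeR quasi-likelihood test, Benjamini-Hochberg adjusted p = 1.00). Reads shared between the tubulin genes may have been split or dropped in the counting. Mapt, the gene of tau, was at 14.8 and 9.01 CPM in the STING ECKO libraries against 16.4 and 28.9 CPM in the WT libraries, with the groups close but not overlapping (log2 fold change -0.93, SE 0.82). Map2, which bundles microtubules in dendrites, had no such order: it was at 23.8 and 6.22 CPM in the STING ECKO libraries against 26.2 and 7.19 CPM in the WT libraries, high in libraries 1 and 3 and low in 2 and 5.

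Dcx and the CRMP family mark migrating neurons and growth cones. Dcx, a microtubule stabiliser of migrating neurons on the X chromosome, was at 8.61 and 13.4 CPM in the STING ECKO libraries against 26.4 and 16.5 CPM in the WT libraries (log2 fold change -0.97, SE 0.82). Crmp1, a mediator of semaphorin signals to the cytoskeleton, was the most abundant member by CPM, at 26.5 and 29.1 CPM in the STING ECKO libraries against 52.7 and 36.4 CPM in the WT libraries. In both genes WT 3 was the highest library and the genotypes did not overlap. The mean of Crmp1 was 27.8 ± 1.83 CPM in STING ECKO and 44.6 ± 11.5 CPM in WT (SD, n = 2 each; log2 fold change -0.68, SE 0.50, adjusted p = 1.00 with the edgeR quasi-likelihood test). Dpysl3, also of the CRMP family, had 593 reads in STING ECKO 1, near the 757 and 546 reads of the WT libraries, and 87 reads in STING ECKO 2 (log2 fold change -0.76, SE 1.07).

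The stathmins bind tubulin dimers and destabilise microtubules. Stmn2 was at 18.7 and 5.26 CPM in the STING ECKO libraries against 26.5 and 9.79 CPM in the WT libraries. Stmn3 was at 23.3 and 7.09 CPM in the STING ECKO libraries against 17.9 and 18.1 CPM in the WT libraries. The groups overlapped in both, since STING ECKO 1 lay among or above the WT libraries and STING ECKO 2 was the lowest.

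The neurofilaments, which fill the axon and set its calibre, were thinly read. Nefl was in neither table. Nefm was listed in the second table alone, with 0 reads in STING ECKO 2 and 95 reads in WT 5. Ina, internexin, went the other way, with 59 and 13 reads in the STING ECKO libraries against 17 and 0 reads in the WT libraries, with overlapping groups. Of the Ina exons, 14.1% overlap exons of Nt5c2 on the other strand, and 19.2% of the Nefm exons overlap those of Nefl, so without a known strand setting those reads cannot be told apart.

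Among the synaptic vesicle and release genes, 7 of the 8 tested had log2 fold changes below 0 (median -0.57), and none passed the adjusted threshold. The group held the members with the widest gap between genotypes and also the one member that was higher in both STING ECKO libraries. Syt1, the calcium sensor of release, was in neither table.

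Syn1 and Syn2 encode synapsins, which hold vesicles in the reserve pool, and they went opposite ways. Syn1 (ENSMUSG00000037217, chromosome X, 20860511 to 20921004, minus strand, GRCm38), whose promoter is printed above, was without reads in STING ECKO and had 279 and 291 reads in the WT libraries. Its WT level was 13.5 ± 0.803 CPM (SD, n = 2), at least 89.6-fold higher than in STING ECKO, taken at a floor of 3 reads per library. The WT libraries were close to each other and the STING ECKO libraries had nothing. The adjusted p was 0.977 with the edgeR quasi-likelihood test (Benjamini-Hochberg adjustment) and ranged from 0.000804 with DESeq2 to 1.00 over the alternatives. Only 9 exonic bases (0.3%) overlap Araf on the other strand.

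Syn2 was at 15.9 and 10.7 CPM in the STING ECKO libraries against 6.38 and 1.35 CPM in the WT libraries. Both STING ECKO libraries lay above both WT libraries, and WT 5 was the lowest. The means were 13.3 ± 3.66 and 3.87 ± 3.56 CPM (SD, n = 2 each), with a log2 fold change of 1.78 (SE 1.27, adjusted p = 1.00 with the edgeR quasi-likelihood test). The synapsin genes thus had opposite orders of the genotypes, each without overlap, while neither passed the adjusted threshold.

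Apba2 encodes Mint2, an adaptor of Munc18 and of the amyloid precursor protein (ENSMUSG00000030519, chromosome 7, 64501706 to 64753878, plus strand, GRCm38). It was without reads in STING ECKO and had 566 and 189 reads in the WT libraries. The WT level was 17.6 ± 12.1 CPM (SD, n = 2), at least 117-fold higher than in STING ECKO, taken at a floor of 3 reads per library. WT 3 was well above WT 5, and neither STING ECKO library had a read. The adjusted p was 0.977 with the edgeR quasi-likelihood test (Benjamini-Hochberg adjustment) and ranged from 0.000170 with DESeq2 to 1.00 over the alternatives. Neither window printed or named for it held a REST element part.

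The SNARE genes did not share a pattern. Stx1a, the syntaxin of the presynaptic membrane, was the steadiest member, at 18.8 and 16.5 CPM in the STING ECKO libraries against 18.7 and 17.5 CPM in the WT libraries. Its log2 fold change was -0.04 (SE 0.73, edgeR quasi-likelihood test, adjusted p = 1.00), and all 4 libraries were alike. Vamp2, the vesicle SNARE synaptobrevin 2, was at 29.1 and 12.8 CPM in the STING ECKO libraries against 47.7 and 23.5 CPM in the WT libraries, with the groups overlapping and WT 3 the highest (log2 fold change -0.76, SE 0.74). Snap25, the third SNARE, was at 0 and 1.55 CPM in the STING ECKO libraries against 17.6 and 0.338 CPM in the WT libraries. It had 381 reads in WT 3 and no more than 34 in any other library, so 1 library carried its WT mean.

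The other vesicle genes overlapped between genotypes. Cplx2, a complexin that clamps SNARE assembly, was at 14.0 and 8.46 CPM in the STING ECKO libraries against 13.6 and 15.3 CPM in the WT libraries. Syp, synaptophysin, the common vesicle marker, was at 3.49 and 1.97 CPM in the STING ECKO libraries against 3.93 and 1.93 CPM in the WT libraries. STING ECKO 2 was the lowest library for Cplx2, and Syp was low in libraries 2 and 5. Of the Syp exons, 16.8% overlap the predicted gene Gm14703 on the other strand.

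Genes of transmitter synthesis and loading were also thinly read. Gad2, an enzyme that makes GABA, had 87 and 0 reads in the STING ECKO libraries against 289 and 9 reads in the WT libraries. Gad1, the other GABA-making enzyme, had 7 reads in STING ECKO 2 and 83 in WT 5 and no row in the first table. Slc17a6, the vesicular glutamate transporter VGLUT2, had 92 and 0 reads in the STING ECKO libraries against 196 and 89 reads in the WT libraries. The transporter that loads GABA, Slc32a1, was in neither table. Gad2 and Slc17a6 both had 0 reads in STING ECKO 2 and their highest count in WT 3, and their genotypes overlapped.

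The adhesion genes overlapped between the genotypes. Ncam1, a homophilic adhesion molecule of the immunoglobulin family, was at 34.6 and 30.1 CPM in the STING ECKO libraries against 30.6 and 25.7 CPM in the WT libraries. Its log2 fold change was 0.20 (SE 0.54, edgeR quasi-likelihood test, adjusted p = 1.00). L1cam, which guides axons, had 82 and 0 reads in the STING ECKO libraries against 36 and 6 reads in the WT libraries. The presynaptic adhesion gene Nrxn2 was in neither table.

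The RNA-binding genes varied between libraries of a genotype more than between genotypes. Elavl3, a Hu protein that stabilises neuronal transcripts, was at 25.3 and 0.960 CPM in the STING ECKO libraries against 21.2 and 10.6 CPM in the WT libraries. Elavl4, its paralogue, was at 4.69 and 16.8 CPM in the STING ECKO libraries against 5.96 and 9.50 CPM in the WT libraries. Rbfox3, the splicing regulator known as the NeuN antigen, was at 6.43 and 14.5 CPM in the STING ECKO libraries against 1.20 and 8.92 CPM in the WT libraries. STING ECKO 2 was the lowest library for Elavl3 and the highest for Elavl4 and Rbfox3. The summed level of the 3 was 36.4 and 32.2 CPM in the STING ECKO libraries against 28.3 and 29.0 CPM in the WT libraries.

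All 3 transcription factors tested had log2 fold changes below 0 (median -2.39), and none passed the adjusted threshold. Neurod6, a basic helix-loop-helix factor of postmitotic cortical neurons, was at 8.12 and 0 CPM in the STING ECKO libraries against 22.5 and 20.1 CPM in the WT libraries. Neurod2, of the same family, was at 2.62 and 0.594 CPM in the STING ECKO libraries against 4.85 and 3.57 CPM in the WT libraries. In both the genotypes did not overlap, with WT 3 the highest library and STING ECKO 2 the lowest. The mean of Neurod6 was 4.06 ± 5.74 CPM in STING ECKO and 21.3 ± 1.70 CPM in WT (SD, n = 2 each; log2 fold change -2.39, SE 2.25, adjusted p = 1.00 with the edgeR quasi-likelihood test). Bcl11b, CTIP2 of deep-layer projection neurons, had 450 reads in WT 3 and 58 in STING ECKO 1, none in STING ECKO 2 and 11 in WT 5. Tbr1, a factor of layer 6 neurons, had a row in the second table alone, with 0 reads in STING ECKO 2 and 18 in WT 5.

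Each library had its own part in these differences. WT 3 was the highest library for 15 of the 28 tested genes, where it was the highest for 24.5% of all tested genes. STING ECKO 2 was the lowest alone for 17 of 28, against 37.1% of all tested genes. STING ECKO 1 was highest for 7 and lowest alone for 4, and WT 5 was highest for 4 and lowest alone for 4. The median level of the 28 genes was 7.28 and 2.97 CPM in the STING ECKO libraries against 17.0 and 10.2 CPM in the WT libraries.

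Genes without reads were most common in STING ECKO 2. There 8 of the 28 tested neuronal genes (28.6%) had 0 reads, against 11.9% of all tested genes. STING ECKO 1 had 3 of 28 (10.7%, against 2.15%), WT 5 had 1 (3.57%, against 1.83%) and WT 3 had none (against 4.39%). The neuronal genes also lay lower in level, with a median of 9.03 CPM, than all tested genes, with one of 21.7 CPM. Where the other libraries averaged 5 to 20 CPM, 7 of 19 neuronal genes had 0 reads in STING ECKO 2, where 15.6% of all such genes did. In STING ECKO 1 it was 3 of 18, where 1.31% of all such genes did, and those 3 were Apba2, Snap25 and Syn1. Apba2, Gap43 and Syn1, all at 0 reads in STING ECKO 2, had reads enough to be tested only in WT. Low counts under STING ECKO were thus built into the filter for these 3 genes, and both shares of zeros include such genes. The part of the zeros of STING ECKO 2 in the genotype differences was not tested, and with that library left out the median log2 fold change of the 28 was -0.35.

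**Figure D2:**
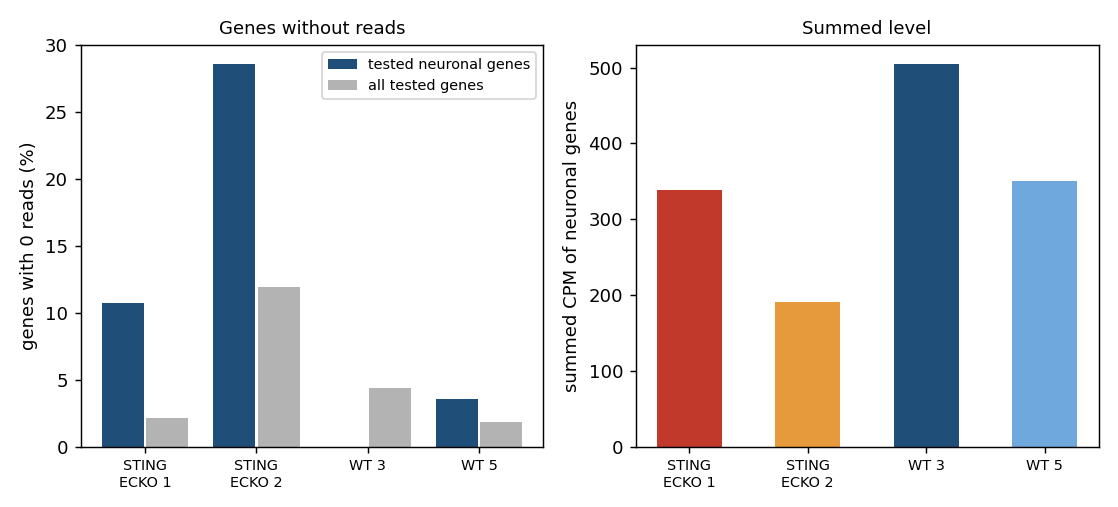
Left, percentage of genes with 0 reads in each library, for the 28 tested neuronal genes (blue bars) and all 13365 tested genes (grey bars). Right, summed CPM of the neuronal genes in each library, with genes without a row counted as 0; the share at 0 reads is the highest in STING ECKO 2 at 28.6%, and the sum is the highest in WT 3 at 505 CPM.

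Libraries of one genotype also lay wide apart in these genes. The median absolute log2 difference over the 28 genes was 1.76 between the STING ECKO libraries and 0.93 between the WT libraries, against 0.85 and 0.58 over all tested genes. Across genotypes it was 0.93 between STING ECKO 1 and WT 3, 0.95 between STING ECKO 1 and WT 5, 2.58 between STING ECKO 2 and WT 3 and 1.96 between STING ECKO 2 and WT 5. The pairs with STING ECKO 2 were thus the widest, whichever genotype the other library had. The same held over all tested genes, at 0.85, 0.87 and 0.91 in pairs with STING ECKO 2 and 0.55 to 0.59 in the others. More than 4-fold apart were 10 of the 28 between the STING ECKO libraries and 7 between the WT libraries, which is 35.7% and 25.0%, against 25.9% and 14.9% of all tested genes.

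The authors' deposited tables set STING ECKO 1 against WT 3 and STING ECKO 2 against WT 5, and mark genes in each as higher or lower from 1 library against 1 library. In the first, the authors' deposited table marked 10 of 28 neuronal genes lower (35.7%, against 19.4% of all its genes) and 4 higher (14.3%, against 21.5%). In the second, the authors' deposited table marked 17 of 31 lower (54.8%, against 35.1%) and 3 higher (9.68%, against 17.0%). The authors' deposited tables marked 7 genes lower in both, namely Apba2, Bcl11b, Gad2, Gap43, Neurod6, Syn1 and Tubb3, and 2 higher in both, Ina and Syn2. The share of all genes marked in both is not given here, so the 7 and 2 have no background to be read against. Among the 7, Apba2, Gap43 and Syn1 had reads enough to be tested only in WT. Marked in opposite directions in the authors' deposited tables were L1cam, higher in the first and lower in the second, and Snap25, lower in the first and higher in the second. In log2 CPM with a prior count of 2, 16 of the 28 genes (57.1%) were below 0 in both pairs, where 27.4% of all tested genes were. Another 4 were above 0 in both and 8 were of opposite sign.

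**Figure D3:**
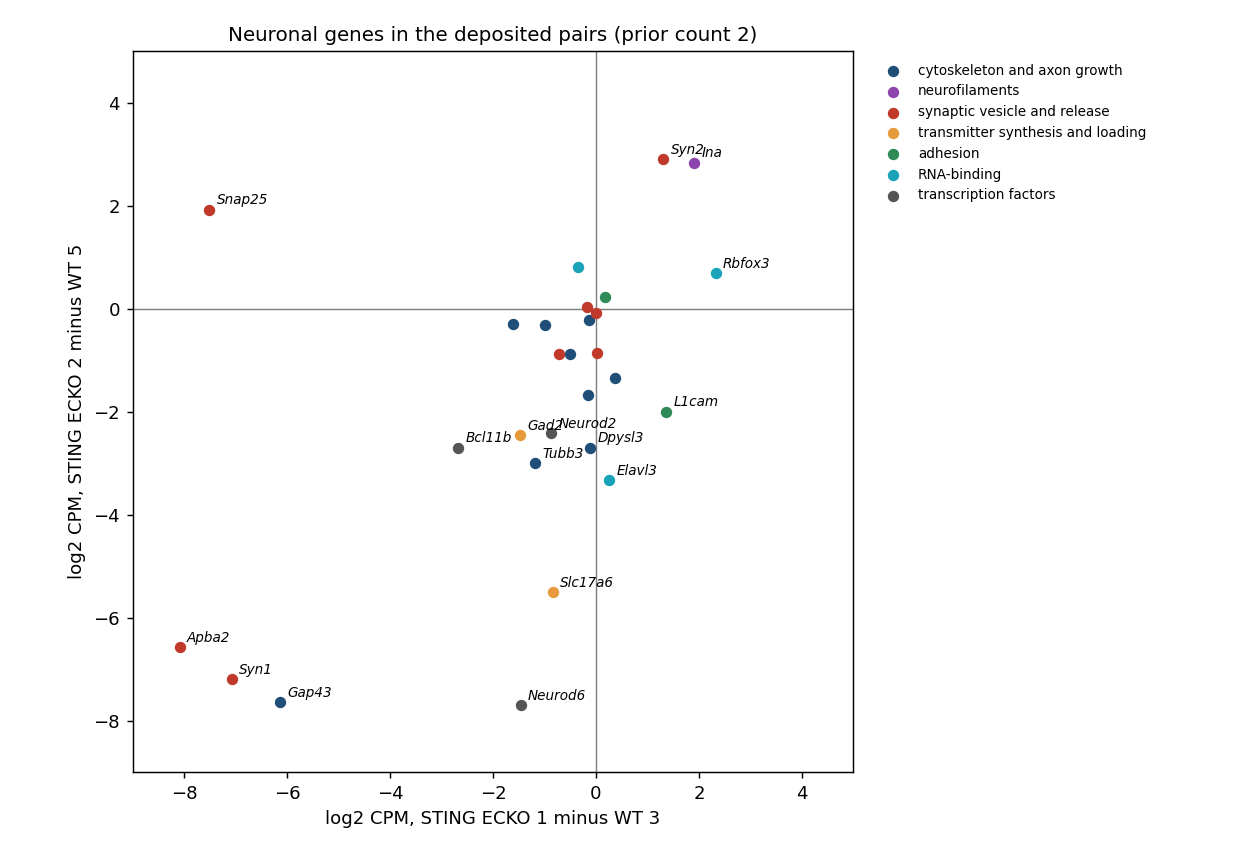
Difference in log2 CPM (prior count 2) of the 28 tested neuronal genes between STING ECKO 1 and WT 3 (horizontal axis) and between STING ECKO 2 and WT 5 (vertical axis), with one point per gene coloured by role. The lower left of the plot holds 16 of the 28 points, with Apba2, Gap43 and Syn1 at its far corner, and Snap25 is the outermost point at the upper left.

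Per kilobase of exon, Stmn3 had the highest mean level of the 28, at 14.6 CPM per kilobase over the 4 libraries. Vamp2 followed at 7.43, Stx1a at 6.70, Neurod6 at 5.90, Crmp1 at 5.14, Gap43 at 4.90 and Tubb3 at 4.48 CPM per kilobase. The libraries of Stmn3 spanned 6.24 to 20.5 CPM per kilobase and those of Vamp2 3.37 to 12.5, and each neighbour in this order overlapped the next over the 4 libraries. L1cam was the lowest at 0.219 CPM per kilobase. Exon lengths are unions over all annotated transcripts, which understates genes with long alternative ends.

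In the 13 pairs set side by side, a relative that is widely expressed outside neurons was more abundant in every library than its neuronal gene. Vamp8, a listed relative outside those pairs, was not: it was at 1.16 to 3.67 CPM per kilobase, below Vamp2 in every library. Per kilobase, Tubb5, the common beta-tubulin, was 145-fold and 698-fold above Tubb3 in STING ECKO 1 and 2 and 58.8-fold and 54.9-fold above it in WT 3 and 5. Vamp3, the vesicle SNARE of most cells, was 10.2-fold to 26.5-fold above Vamp2. Stx4a, a syntaxin of the plasma membrane in many cells, was 5.67-fold to 7.33-fold above Stx1a, the narrowest range of the pairs set side by side. Dpysl2, a widely expressed member of the CRMP family, was 23.5-fold to 45.5-fold above Crmp1. Dpysl2 and Stmn1, another relative in these pairs, also stand on the list of other neuronal cytoskeleton and transport genes below. Snap23 was at 25.5 to 33.4 CPM per kilobase in the 4 libraries, while Snap25 was at 0 to 2.59. Apba3, the Mint protein found in most tissues, was at 16.9 to 28.4 CPM per kilobase, with 25.9 and 22.3 in the STING ECKO libraries in which Apba2 had no read. A separate list of 13 widely expressed genes holds Vamp8 and the relatives in the pairs other than Dpysl2 and Stmn1. It also holds genes that are in no pair, such as Marcksl1. Of its genes, 5 had a log2 fold change below 0 and 8 above, with a median of 0.04. None was called by the edgeR quasi-likelihood test. DESeq2 and the likelihood ratio test each called 1 of them, Marcksl1, which was at 583 and 850 CPM in the STING ECKO libraries against 221 and 266 CPM in the WT libraries.

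**Figure D4:**
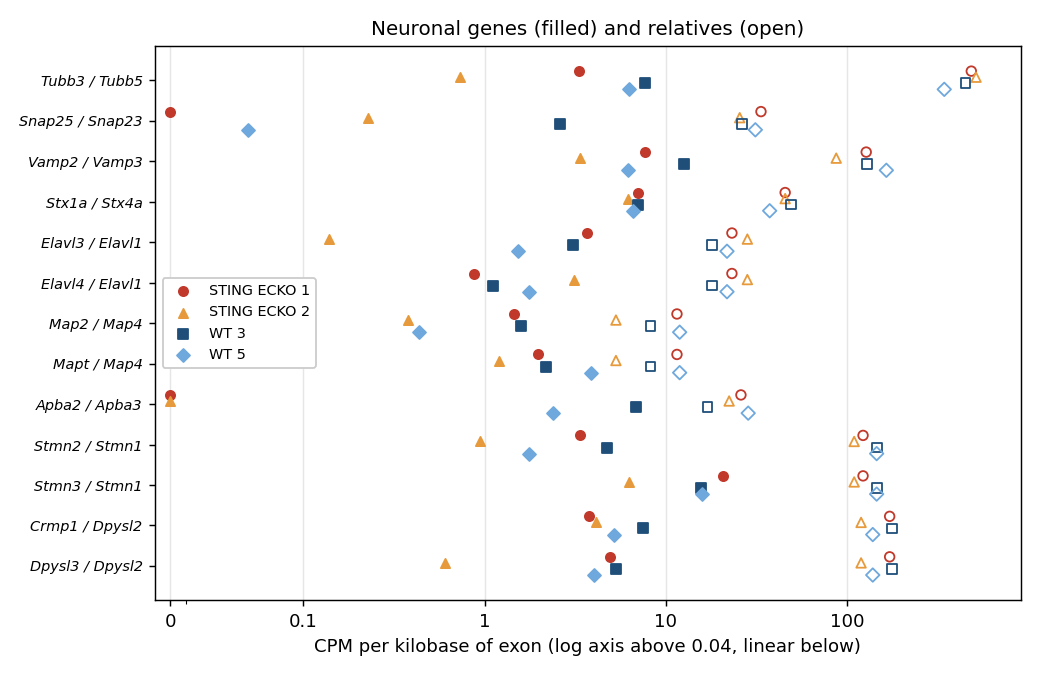
Level of neuronal genes (filled symbols) and of a relative that is expressed in many tissues (open symbols), as CPM per kilobase of exon on a log axis above 0.04, with one symbol per library. Each relative lies above its neuronal gene in all 4 libraries, and the Apba2 symbols of both STING ECKO libraries lie at 0.

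Other neuronal genes were read from lists drawn up by function, with earlier results known, and the edgeR quasi-likelihood test called 0 in each. Of the other synaptic vesicle and release genes, 16 of 26 were tested, 7 below 0 and 9 above, with a median log2 fold change of 0.22, so they did not lean the way of the vesicle genes above. Bsn, the active zone scaffold bassoon, was without reads in STING ECKO and had 111 and 45 reads in the WT libraries. Rab3c, a GTPase of synaptic vesicles, had 5 and 0 reads in the STING ECKO libraries against 284 and 50 reads in the WT libraries. Bsn and Rab3c had reads enough to be tested only in WT, so a difference in them was built into the filter. Sypl, a synaptophysin relative found outside neurons, was at 128 to 196 CPM in all 4 libraries.

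Of the other cytoskeleton and transport genes, 23 of 26 were tested, with 16 below 0, 7 above and a median of -0.33. Dpysl5, of the CRMP family, had 3 and 9 reads in the STING ECKO libraries against 188 and 244 reads in the WT libraries. Kif5a, a kinesin of neuronal transport, was the reverse, with 41 and 263 reads in the STING ECKO libraries against 1 and 0 reads in the WT libraries. Dpysl5 had reads enough to be tested only in WT and Kif5a only in STING ECKO, so these differences were built into the filter. Tuba1a, an alpha-tubulin abundant in young neurons, was at 1131 to 1621 CPM, higher by far than any of the 35 genes. Of the other adhesion genes, 12 of 17 were tested, with 8 below 0, 4 above and a median of -0.64. Ncan, a proteoglycan of the neural matrix, was at 119 and 102 CPM in the STING ECKO libraries against 74.6 and 63.7 CPM in the WT libraries.

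Most receptors and channels of neurons were too low to test, with 9 of 23 tested, 5 of them below 0, 4 above and a median of -1.22. Grin2b, a subunit of the NMDA receptor, had 3 reads in each STING ECKO library and 49 and 87 in WT 3 and 5. Of the neuronal transcription and RNA regulators, 24 of 31 were tested, with 14 below 0, 10 above and a median of -0.42. Isl1, a LIM homeodomain factor, was without reads in STING ECKO and had 55 and 96 reads in the WT libraries. Eomes, the Tbr2 of intermediate progenitors, was the reverse, with 58 and 72 reads in the STING ECKO libraries against 1 and 0 reads in the WT libraries. Grin2b and Isl1 had reads enough to be tested only in WT and Eomes only in STING ECKO. Differences in them were likewise built into the filter. Of the interneuron and peptide genes, 3 of 12 were tested, 1 below 0 and 2 above. Genes of the REST repressor complex were read in every library: of 11 tested, 6 were below 0 and 5 above, with a median of 0.00, and Rest itself was at 103 and 68.5 CPM in the STING ECKO libraries against 68.4 and 91.1 CPM in the WT libraries.

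Markers of other brain cells were also present. The 10 markers of neural progenitors and radial glia summed to 1177 and 766 CPM in the STING ECKO libraries against 1009 and 980 CPM in the WT libraries, and 6 of the 9 tested were below 0. Among them, Pax6 had 1 read in each STING ECKO library and 248 and 121 reads in WT (adjusted p = 0.0187 with DESeq2 and 0.977 with the edgeR quasi-likelihood test). Pax6 had reads enough to be tested only in WT, so a difference in it was built into the filter. Hes5 had 0 reads in STING ECKO 2. Astrocyte markers, 10 of 12 with a row, summed to 819 and 775 CPM in the STING ECKO libraries against 880 and 699 CPM in the WT libraries, and Acsbg1 had 0 reads in both STING ECKO libraries. Aqp4, Aldh1l1 and Slc1a2 had 0 reads in STING ECKO 2. Oligodendrocyte lineage markers, 7 of 10 with a row, summed to 121 and 163 CPM in the STING ECKO libraries against 191 and 207 CPM in the WT libraries, and Olig1 had 0 reads in STING ECKO 2 and Olig2 in STING ECKO 1 and WT 5. The 12 microglia and macrophage markers summed to 561 and 433 CPM in the STING ECKO libraries against 569 and 1345 CPM in the WT libraries. Pericyte and smooth muscle markers summed to 10083 and 10480 CPM in the STING ECKO libraries against 8219 and 7606 CPM in the WT libraries, and of the 9 tested, 7 were above 0 and 2 below. Rgs5, their most abundant, had a log2 fold change of 0.43, while Acta2 had 0 reads in both STING ECKO libraries. The part of these cells, and of the sex of the libraries, in the levels of the neuronal genes was not tested.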

How the data were processed

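RNA sequencing read counts of 4 libraries came in 2 tables, the first with STING ECKO 1 and WT 3 and the second with STING ECKO 2 and WT 5. Reads were processed with TopHat2 2.0.12, Bowtie2 2.2.3 and HTSeq 0.6.0 on build mm9, per the submitters' processing notes. The strand setting is not given in the sources used here, nor is the release of the annotation. Positions of 16013 of 17872 matched genes (89.6%) were identical to GENCODE M21 on GRCm38, so coordinates are read as GRCm38. Per the file headers, 1 deposited column of each library is a count of reads. The authors' other column is CPM, with 0 written as that of 0.5 read. The authors' deposited fold is a ratio of those CPM, and their log2 column is its log2. The authors' deposited p-value columns set 1 library against 1 library and were not used as a test of genotype.

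The 14100 genes in both tables were fitted in edgeR 4.0.16 (R 4.3.3), with filterByExpr at a minimum count of 10, TMM scaling, the quasi-likelihood test and Benjamini-Hochberg adjustment over 13365 genes (threshold 0.05). The 3805 genes in one table entered as alternatives. One read was 0.0457 to 0.0545 CPM. Other alternatives were DESeq2 1.42.0, limma-voom (limma 3.58.1), the likelihood ratio test of edgeR, other scalings and filters, the deposited table as a block, and leaving out each library. The fit was tested on simulated counts that had the same dispersion for every gene, so that test does not show its power on these data. Bounds use a floor of 3 reads per library.

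The genes and the lists were chosen with earlier results of these data known. Statistics are given for members whose genotypes do not overlap or that have the smallest unadjusted p (up to 8) and for up to 6 with the highest mean CPM, and reads or levels for all. From other lists the rule takes the 2 tested genes with the highest mean CPM and the 2 with the smallest unadjusted p.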

Additional observations from a re-analysis of the deposited data

How the results depend on the processing

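Calls depended on the test: DESeq2 called 87 genes, 3 of the neuronal genes, 1 gene of the other neuronal and related lists (Marcksl1) and 1 cell type marker (Pax6), and the edgeR likelihood ratio test called 33, 3, 1 and 0. In both the 3 were Apba2, Gap43 and Syn1, which, like Pax6, had reads enough to be tested only in WT. The quasi-likelihood test called 0 genes under other scalings, under either filter, with genes of one table at 0 or 4 reads, with the deposited table as a block and without any library. The median log2 fold change of the tested neuronal genes was -1.63 without STING ECKO 1, and leaving out each library in turn gave -1.63 to -0.07. With STING ECKO 2 or WT 3 left out, 8 of 28 members changed sign, against at most 1 under any other setting. Leaving out a library leaves its genotype with 1, which is assumed to vary like the other genotype. The genotypes share no replicate numbers, so pairing by number was not possible, and pairing by deposited table gave a median of -0.94 with 0 calls. Depth limits genes near 1 read, and unlisted genes had at most 4.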

Other observations

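Some neuronal genes outside the 35, chosen here after their values were seen, were read mostly in 1 library. Reln, the extracellular signal of Cajal-Retzius cells, had 395 reads in STING ECKO 2, 28 in WT 3 and none in the others. Grik2, a kainate receptor subunit, had 287 reads in WT 5, 22 in WT 3, and at most 1 in a STING ECKO library. Grik2 had reads enough to be tested only in WT. Calb2, calretinin of a class of interneurons, was spread more evenly, with 99 and 57 reads under STING ECKO, 27 in WT 3 and none in WT 5.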
